A study of Mesocricetus auratus with 8 samples.

Results

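Transcript levels of the circadian clock genes were compared between satellite cells (SCs, the stem cells of skeletal muscle) of the Syrian hamster kept at 37°C and the same kind of culture after 24 h at 4°C. The genes were chosen by name, as a list of 10 core clock genes in 4 roles: the negative arm (Per1, Per2, Per3, Cry1 and Cry2), the positive arm (Clock and Arntl), the REV-ERB repressors (Nr1d1 and Nr1d2) and the output factor Dbp. Rows with these symbols and with values were found for 9 of the 10, out of 17590 genes with values, and Dbp was not analysed here. Arntl is the symbol the table uses for Bmal1. All 9 passed the filter on low counts and were tested.

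The SCs came from hindlimb muscle of sexually mature male hamsters labelled WT (Slc:Syrian stock in the study's methods), were enriched by preplating and were grown on Matrigel in growth medium. Cultures spent 48 h at 37°C, and then 24 h at 37°C in growth medium with 100 mM HEPES. Control libraries (n = 4) were taken before the cold. Cold libraries (n = 4) were taken after a further 24 h at 4°C in the same medium. The labels do not say whether the 4 replicates of a group came from separate animals, so p-values measure the spread between these libraries. No library kept at 37°C for the further 24 h was analysed here, so the temperature and the extra day without a medium change cannot be told apart. The sources used here do not give the hour of harvest. Each group was sampled at a single stage, the cold libraries after a further 24 h, so whether the clock ran or stopped in the cold was not tested. The control labels list 3, 4, 5 and 6 days at 37°C for replicates 1 to 4, whereas their titles all place them on day 3.

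The mammalian clock is a feedback loop of transcription. CLOCK and ARNTL bind together to E-box elements and switch on Per, Cry, Nr1d1, Nr1d2 and Dbp. The PER and CRY proteins then repress CLOCK and ARNTL, and the REV-ERB proteins encoded by Nr1d1 and Nr1d2 repress Arntl, which ROR proteins activate. The loop runs in skeletal muscle and in cultured myogenic cells, where it is known to act on Myod1, the gene for a master regulator of the myogenic lineage, and it can be set by serum, by glucocorticoids and by changes of temperature.

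The libraries held between 16530747 and 18533801 expected counts. SC and myoblast markers were present (Pax7 between 10.8 and 16.1 TPM, Myf5 between 99.9 and 205 TPM, Myod1 between 424 and 693 TPM). Of the markers of other cells, Ptprc and Adipoq never exceeded 0.03 TPM, while the fibroblast gene Dcn reached 229 TPM and Cd68 reached 52.0 TPM. The largest source of variance over all genes (the first principal component, 54.5%) was a split of replicates 1 and 2 against replicates 3 and 4, seen at both temperatures, and cold and control separated on the second (17.9%). All 10 markers of myogenic differentiation on the list used here were lower in the cold library in 4 of 4 replicate numbers, with a summed level of 1843 to 3810 TPM in control and 1007 to 1805 TPM in cold libraries. Among these markers, Acta1, Myh3, Myl1, Tnnt1 and Mef2c are genes that the paper already reported as lower in the cold in the same data. The list is therefore not an independent check of that result. In bulk libraries, fewer cells of a type and less RNA per cell cannot be told apart.

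None of the 9 clock genes passed the study's thresholds for a changed gene. These are an at least 2-fold change in level (1 on the log2 scale) together with an adjusted p under 0.05. Here p came from the quasi-likelihood test of edgeR and was adjusted by Benjamini-Hochberg over 12506 genes. Over all genes tested, 5 (0.04%) passed. The study's methods do not name the test behind its Q value, and its list of changed genes, all lower, was longer than the one called here. The test used here was therefore the stricter one. With the fold threshold dropped, 0 of the 9 passed an adjusted p of 0.05, against 0.072% of all genes, and 1 of the 9, Nr1d2, had an unadjusted p under 0.05, against 6.7% of all genes. Log2 fold changes ran from −0.12 for Per1 to 0.14 for Nr1d2, with 6 genes lower and 3 higher in the cold. Of all 12506 genes tested, 5894 were lower and 6612 higher. The median log2 fold change of the 9 was −0.04, and their median size regardless of sign was 0.08, beside 0.01 and 0.07 over all genes tested.

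The 95% intervals of the 9 fold changes lay between 0.771-fold (the lower bound for Per2) and 1.36-fold (the upper bound for Clock), so that no interval reached a 2-fold change in either direction. Libraries with the same replicate number deviated together, and replicate numbers were therefore entered as a block in a second fit. It narrowed the intervals to between 0.841-fold and 1.18-fold. In that fit again 0 of the 9 passed both thresholds, against 0.848% of all genes, and 0 of the 9 passed an adjusted p of 0.05, against 5.33% of all genes (4.07% lower and 1.26% higher). At an unadjusted p under 0.05, the block gave 2 of the 9, Clock and Nr1d2, against 18.2% of all genes. DESeq2 called 0 of the 9 at an adjusted p of 0.05 both without the block (0.817% of all genes) and with it (2.14%), and its unadjusted p was under 0.05 for 1 of the 9 without the block (4.6% of all genes) and 2 with it (7.21%). Limma on log2(TPM + 0.1) likewise called 0 of the 9 without the block (0.029% of all genes) and with it (2.11%), and 1 of the 9 had an unadjusted p under 0.05 in either case (6.42% and 14.4% of all genes).

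**Figure D1:**
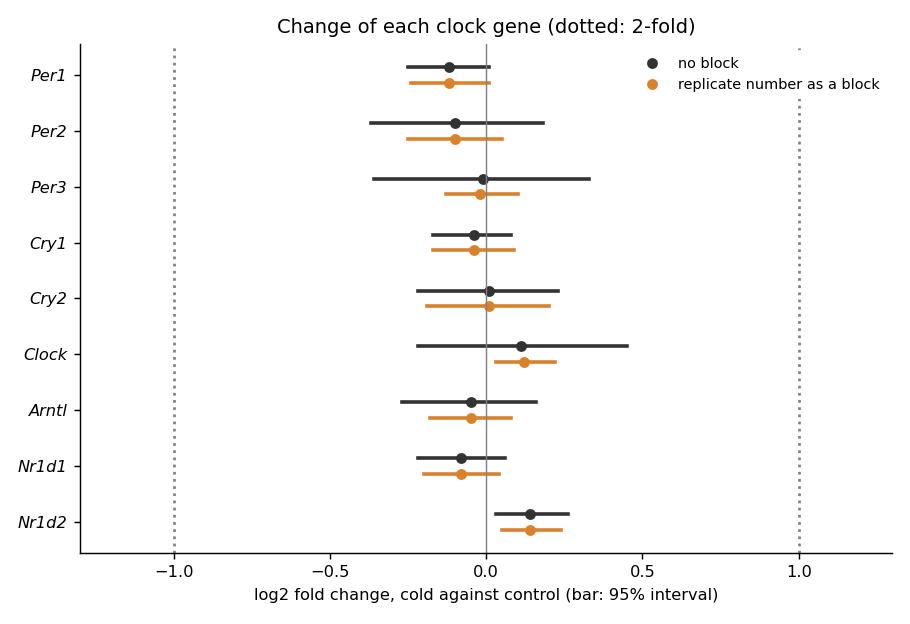
Log2 fold change of each of the 9 clock genes, cold against control (x axis, log2 scale), with 95% intervals as bars, from edgeR without a block (black) and with the replicate number as a block (orange). Every bar lies inside the dotted lines at a 2-fold change, and only the bars of Clock (with the block) and Nr1d2 (both fits) stay clear of 0.

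Of the positive arm, Clock, the gene for the histone-acetylating partner of the dimer, varied most between libraries. It was at 14.2, 14.8, 22.3 and 22.2 TPM in control replicates 1 to 4 and at 17.2, 17.3, 23.6 and 21.3 TPM in cold replicates 1 to 4. Replicates 3 and 4 stood above replicates 1 and 2 in both groups, and the groups overlapped. Clock had an estimate of 0.11 on the log2 scale, with a standard error of 0.15 (edgeR adjusted p = 0.999). With the replicate number as a block the log2 fold change was 0.12 (standard error 0.04, 95% interval 0.03 to 0.22, adjusted p = 0.138 with edgeR). The cold level was 1.21, 1.17, 1.06 and 0.96 times the control level in replicates 1 to 4. Clock therefore had its higher cold values in replicates 1 to 3 and a slightly lower one in replicate 4.

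Arntl, which encodes the dimer's other partner and is itself the target of the REV-ERB and ROR proteins, stood at 13.3, 14.6, 12.2 and 16.3 TPM in control replicates 1 to 4. In cold replicates 1 to 4 it stood at 13.5, 14.7, 13.0 and 14.02 TPM. The cold values lay wholly within the control range (log2 fold change −0.05, standard error 0.09, adjusted p = 0.999 with edgeR). Clock exceeded Arntl in every library, with a ratio of their TPM values of 1.07, 1.01, 1.83 and 1.37 in control and 1.27, 1.18, 1.82 and 1.52 in cold replicates 1 to 4. The ratio therefore differed more between replicate numbers than between the temperatures.

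In the negative arm, Per1, which encodes a PER repressor and answers quickly to signals that reset the clock, was the member with the lowest fold change. Control replicates 1 to 4 held 6.86, 6.73, 6.93 and 7.23 TPM, and cold replicates 1 to 4 held 6.70, 6.47, 6.23 and 6.49 TPM. All 4 cold values lay below all 4 control values, by a narrow margin of 6.73 against 6.70 TPM. The exact two-sided permutation test gave p = 0.0286, the smallest p that 4 libraries against 4 allow, unadjusted for the 9 genes tested in this way. Per1 was the only member of the 9 without overlap, beside 4.68% of all genes tested. With the deposited normalized counts the groups of Per1 overlapped and those of Nr1d2 did not, and with TMM-scaled CPM the groups of both genes stood apart. The control mean was 6.94 ± 0.212 TPM and the cold mean 6.47 ± 0.192 TPM (± SD, 4 libraries each), a log2 fold change of −0.12 (95% interval −0.25 to 0.01, adjusted p = 0.828 with edgeR, or 0.308 with the replicate block).

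Per2, the gene for the PER protein whose loss shortens or abolishes rhythms in mice, was at 4.92, 5.04, 6.71 and 5.86 TPM in control replicates 1 to 4 and at 4.51, 4.64, 5.92 and 6.20 TPM in cold replicates 1 to 4. The cold value was the lower one in replicates 1 to 3 and the higher one in replicate 4. Its log2 fold change was −0.10 (95% interval −0.37 to 0.18, exact permutation p = 0.571). Per3, the third PER gene, was at 8.60, 8.64, 12.5 and 11.4 TPM in control and 8.04, 8.87, 12.2 and 12.1 TPM in cold replicates 1 to 4. Cold was lower in 2 replicate numbers and higher in the other 2, the mean was 10.3 TPM in both groups (SD 1.99 in control and 2.15 in cold, n = 4 each), and the exact permutation p was 1.0. For both genes the levels of replicates 3 and 4 stood above those of replicates 1 and 2 in either group, as for Clock.

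Cry1, which encodes the stronger light-independent repressor of CLOCK and ARNTL, was at 14.98, 14.2, 16.2 and 17.0 TPM in control and at 14.6, 15.6, 15.2 and 15.2 TPM in cold replicates 1 to 4. The cold libraries lay within the control range, and their SD was 0.414 TPM against 1.25 TPM (n = 4 each). Cry2, its close relative, was at 3.87, 3.38, 3.33 and 3.49 TPM in control and at 3.50, 3.76, 3.44 and 3.62 TPM in cold replicates 1 to 4, the lowest level of the 9 genes. Its counts, between 139 and 171 per library, were also the smallest. The log2 fold changes were −0.04 for Cry1 (95% interval −0.17 to 0.08) and 0.01 for Cry2 (−0.22 to 0.23), with exact permutation p-values of 0.571 and 0.657.

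**Figure D2:**
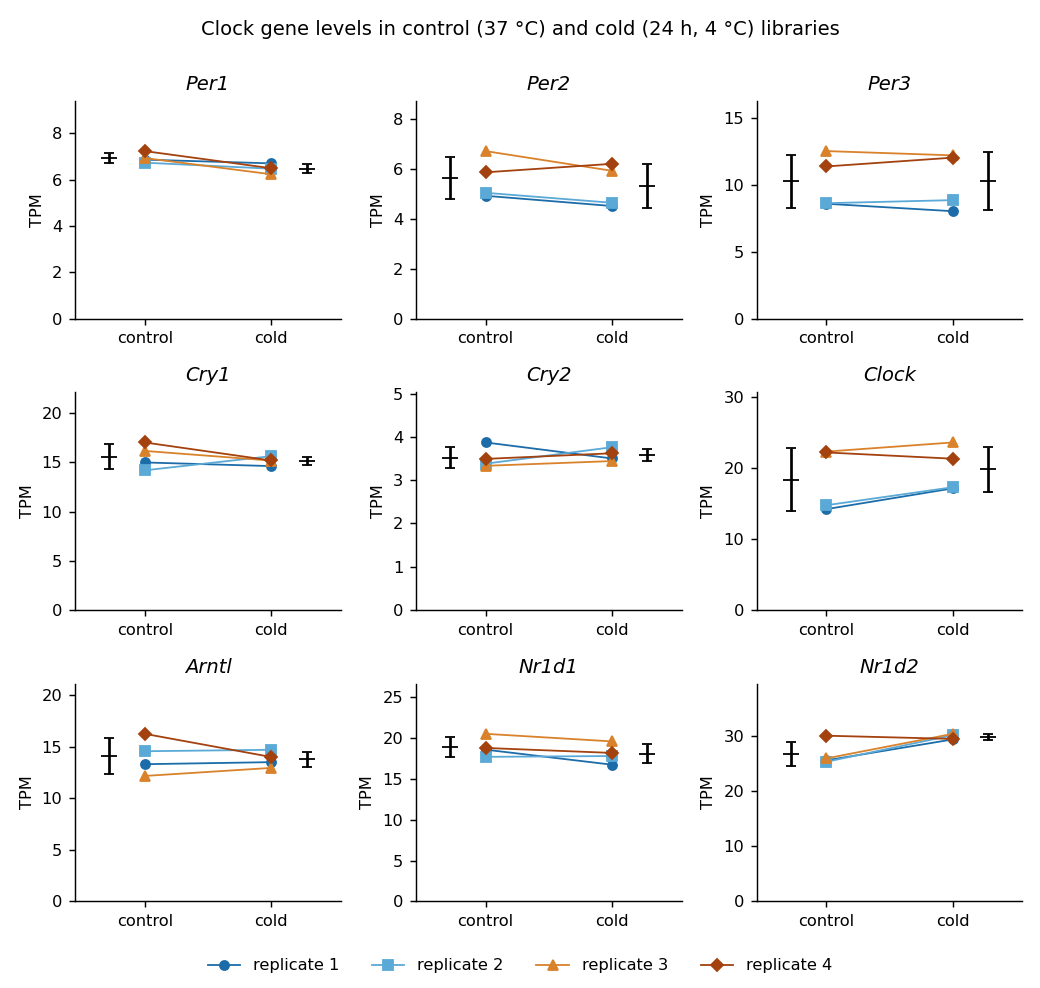
TPM (y axis, from 0) of each of the 9 clock genes in the control and cold libraries, with 1 line per replicate number and the mean ± SD of 4 libraries in black beside each group. The lines of Clock, Per2 and Per3 fall into a lower level (replicates 1 and 2) and a higher one (replicates 3 and 4), and Nr1d2 comes together at 29.3 to 30.3 TPM in the cold.

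The REV-ERB repressors had opposite signs. Nr1d2, which encodes REV-ERB beta, was at 25.5, 25.3, 25.9 and 30.0 TPM in control replicates 1 to 4 and at 29.3, 30.1, 30.3 and 29.4 TPM in cold replicates 1 to 4. Control replicates 1 to 3 lay below all cold libraries, and control replicate 4 lay among them. The cold level was 1.15, 1.19, 1.17 and 0.981 times the control level in replicates 1 to 4. The fold change was 1.10 (95% interval 1.02 to 1.20), a log2 fold change of 0.14 (standard error 0.05, unadjusted p = 0.0212, adjusted p = 0.608 with edgeR). With the replicate block, the adjusted p of Nr1d2 was 0.0831. The counts of Nr1d2 had decimals in all 8 libraries, as can arise when reads are divided between genes, so its level is uncertain. Whether reads were divided was not tested, and the counting program is not given. Nr1d1, which encodes REV-ERB alpha, was at 18.6, 17.7, 20.5 and 18.8 TPM in control and at 16.7, 17.8, 19.6 and 18.2 TPM in cold replicates 1 to 4. Its groups overlapped (log2 fold change −0.08, 95% interval −0.22 to 0.06, exact permutation p = 0.400). The ratio of Nr1d1 to Nr1d2 was 0.728, 0.701, 0.793 and 0.627 in control and 0.571, 0.592, 0.646 and 0.618 in cold replicates 1 to 4, lower in the cold in each replicate number.

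In 2 of the other settings, Clock and Nr1d2 passed an adjusted p of 0.05 with edgeR. With replicates 1 and 2 alone (2 libraries against 2), the log2 fold changes were 0.202 for Clock (adjusted p = 0.0102) and 0.163 for Nr1d2 (adjusted p = 0.0493), where 11.6% of all genes passed. With the replicate block and without replicate 4, they were 0.165 (adjusted p = 0.033) and 0.188 (adjusted p = 0.0165), where 7.44% passed. With replicates 3 and 4 alone, the log2 fold changes were 0.037 and 0.111, and the adjusted p was 0.997 for both. The difference between these sets of replicates was not tested.

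The 9 genes differed among themselves in how they varied at one temperature. Between the lowest and the highest control library, Clock differed 1.57-fold, Per3 1.46-fold, Per2 1.36-fold and Arntl 1.34-fold. Cry1, Nr1d2, Nr1d1 and Cry2 differed 1.16-fold to 1.20-fold, and Per1 differed 1.07-fold. The median over 11081 genes with at least 1 TPM in every control library was 1.23-fold, and 86.2% of these genes had a smaller spread than Clock and 7.28% a smaller spread than Per1. Replicates 3 and 4 lay above replicates 1 and 2 in both groups for 4 of the 9 genes (Clock, Per2, Per3 and Nr1d1) and below them for 0, beside 28.5% and 12.8% of all genes tested. The same libraries had less of the differentiation markers (summed levels of 1843 and 2058 TPM in control replicates 3 and 4 against 3810 and 3776 TPM in control replicates 1 and 2) and a higher summed level of the fibroblast markers (842 and 1085 TPM against 738 and 751 TPM, 7 of 8 listed markers with values). Dcn, Lum, Col3a1, Dpt and Pdgfra followed that split in the control libraries, and Col1a1 and Col1a2 did not. Leukocyte markers (5 of 6 with values, with Ptprc and Itgam under 0.1 TPM everywhere) summed to 97.3 and 75.3 TPM in control replicates 3 and 4 against 46.7 and 40.9 TPM in control replicates 1 and 2. The part of these cells in the clock gene levels was not tested. The labels of these controls also give 5 and 6 days at 37°C for replicates 3 and 4 against 3 and 4 days for replicates 1 and 2, which cannot be told apart from the replicate number.

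**Figure D3:**
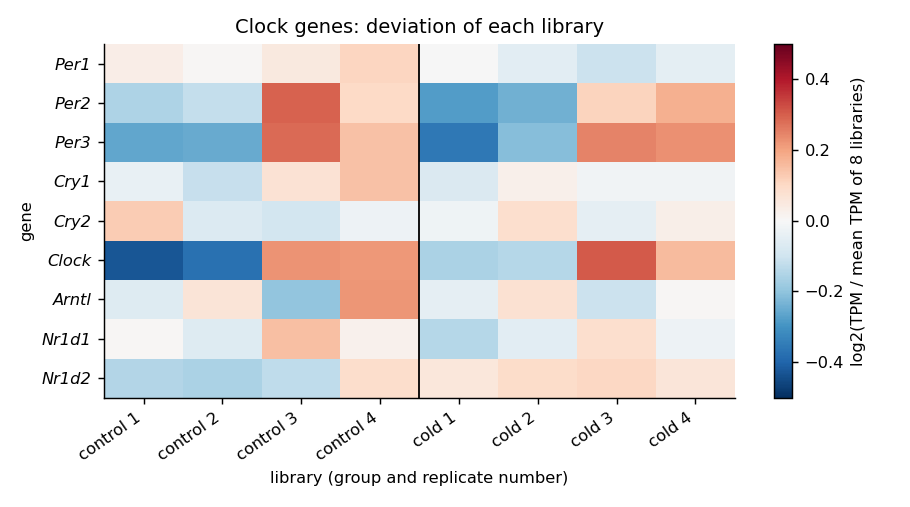
Deviation of each library from the mean of all 8 libraries for each of the 9 clock genes (rows), as log2 of TPM over the mean TPM (colour, blue lower and red higher), with control libraries to the left and cold libraries to the right of the black line. The colour of Clock, Per2 and Per3 changes between replicates 2 and 3 within either group, while no row apart from Per1 and Nr1d2 changes colour mainly at the black line.

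Ranked by mean TPM in the control libraries, a scale that takes transcript length into account, Nr1d2 was highest at 26.7 ± 2.23 TPM (SD, n = 4). Nr1d1 (18.9 ± 1.18), Clock (18.4 ± 4.49), Cry1 (15.6 ± 1.25), Arntl (14.1 ± 1.75) and Per3 (10.3 ± 1.99) followed. Per1 (6.94 ± 0.212), Per2 (5.63 ± 0.831) and Cry2 (3.52 ± 0.244) were lowest. The control ranges of neighbours in this order overlapped from Nr1d1 down to Per3 and did not overlap between Nr1d2 and Nr1d1 or from Per3 down to Cry2. Likeness of pattern was measured as the root mean square difference between log2 CPM profiles, each centred on its own mean, over the 8 libraries. By that measure the nearest genes to Per2 were Lamtor2 (0.0416), Rchy1 (0.0501) and Itm2c (0.0524), against a root mean square of 0.174 for the profile of Per2 itself. Those nearest to Nr1d1 were Thap11 (0.0213), Arl10 (0.0312) and Trappc14 (0.0316), against 0.0725 for Nr1d1, and those nearest to Arntl were CUNH18orf32 (0.0438), Ciao2a (0.0469) and Rras2 (0.0527), against 0.124 for Arntl.

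A wider list of 56 genes covered the rest of the pathway, of which 52 had values and 49 were tested. The other 3 genes with values had too few counts to be tested, and the remaining 4 genes of the list were not analysed here. Without the block, edgeR called 0 of the 49 at an adjusted p of 0.05, beside 0.072% of all genes, and 5 had an unadjusted p under 0.05, beside 6.7% of all genes. DESeq2 and limma without the block also called 0 at an adjusted p of 0.05, beside 0.817% and 0.029% of all genes. With the replicate block, edgeR called 3 genes lower (Cdkn1a, Usp2 and Tef) and 1 higher (Nono), beside 4.07% and 1.26% of all genes. The median log2 fold change of the list was 0.02 in both fits, beside 0.01 over all genes, with 19 genes lower and 30 higher. Without the block, 5894 of all genes tested were lower and 6612 higher, which is the background for the counts by role given below. Control and cold TPM values did not overlap in 7 of the 49 (14.3%, beside 4.68% of all genes): Usp2, Crem and Cdkn1a had the lower and Tipin, Fbxw11, Nono and Sfpq the higher TPM values in the cold. This count is given for TPM alone, and for Per1 and Nr1d2 the overlap depended on the unit. Crem (log2 fold change −0.20), Tipin (0.14), Fbxw11 (0.06) and Sfpq (0.09, with decimal counts in 7 libraries) passed in neither edgeR fit, with adjusted p-values of 0.708 to 0.999 without the block and 0.121 to 0.503 with it.

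Among the paralogues and genes of the accessory loops, 7 of 12 had a log2 fold change below 0. Tef, a transcription factor of the same family as Dbp that binds D-box elements, was at 48.8, 47.6, 37.0 and 40.0 TPM in control and at 38.9, 40.6, 36.2 and 36.6 TPM in cold replicates 1 to 4. Tef was lower in the cold in 4 of 4 replicate numbers, although the groups overlapped, since the low level of control replicate 3 lay below cold replicates 1 and 2. Its log2 fold change was −0.21 without the block (adjusted p = 0.862) and −0.20 with it (standard error 0.05, adjusted p = 0.0281, both with edgeR). The call of Tef was lost in the blocked fits of DESeq2 (adjusted p = 0.0653) and limma (0.183), and in that of edgeR without replicate 1 (0.174) or replicate 2 (0.187). Its log2 fold change was −0.343 with replicates 1 and 2 alone and −0.068 with replicates 3 and 4 alone, a difference that was not tested. Hlf, the other member of that family on the list, had the largest log2 fold change of the list, 0.50 (95% interval −0.50 to 1.51, adjusted p = 0.999), but held only 3 to 25 counts per library. Without control replicate 1, its lowest library, the log2 fold change of Hlf was 0.171, smaller in size than that of Cdkn1a (−0.317) in the same fit. Its size thus depended on that library. With the block and without replicate 3 the log2 fold change of Hlf was 0.999 (adjusted p = 0.147), and with replicates 1 and 2 alone it was 1.507 (adjusted p = 0.0347, both with edgeR). With replicates 3 and 4 alone it was −0.233 (adjusted p = 0.997 with edgeR), a difference that was not tested. Of the genes that oppose or replace core factors, the ARNTL competitors Bhlhe40 (log2 fold change −0.19) and Bhlhe41 (0.03), the D-box repressor Nfil3 (0.05), the Clock paralogue Npas2 (−0.13), the ROR gene Rora (−0.21) and the CLOCK-ARNTL repressor Ciart (−0.12) had adjusted p-values of 0.972 to 0.999 without the block and 0.235 to 0.928 with it. Bhlhe40 was called with the block and without replicate 4, and with replicates 1 and 2 alone.

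Of the enzymes that mark or degrade clock proteins, 6 of 13 had a log2 fold change below 0 and 7 above it. Usp2, a deubiquitinase of clock proteins whose own transcript is under clock control, was at 9.16, 7.97, 8.07 and 9.44 TPM in control and at 7.19, 6.93, 6.71 and 7.86 TPM in cold replicates 1 to 4. All cold values lay below all control values (exact permutation p = 0.0286). Its log2 fold change was −0.31 (95% interval −0.49 to −0.14, adjusted p = 0.287 with edgeR, or 0.0104 with the replicate block). The call of Usp2 was lost in the blocked fits of DESeq2 (adjusted p = 0.175) and limma (0.112), and in that of edgeR without replicate 2 (0.0646). The kinase genes Csnk1d (log2 fold change 0.02, 95% interval −0.08 to 0.12) and Csnk1e (−0.02, −0.17 to 0.13), whose products phosphorylate PER proteins, lay near 0.

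Of the co-regulators, 7 of 8 had a log2 fold change above 0, beside 6612 of all 12506 genes tested. Nono, which encodes an RNA-binding partner of the PER complex, was at 228, 248, 249 and 237 TPM in control and at 269, 296, 264 and 256 TPM in cold replicates 1 to 4, without overlap. Its log2 fold change was 0.16 (95% interval 0.02 to 0.30, adjusted p = 0.658 with edgeR, or 0.0133 with the replicate block). With the block, DESeq2 also called Nono (adjusted p = 0.0182). The call was lost in the blocked fit of limma (0.0806) and in that of edgeR without replicate 1 (0.0762) or replicate 2 (0.172). Among the inputs to the clock, 3 of 10 had a log2 fold change below 0 and none passed in either fit, with 1 and 4 of the 10 at an unadjusted p under 0.05 without and with the block, beside 6.7% and 18.2% of all genes. Rbm3, which encodes a cold-inducible RNA-binding protein, had a log2 fold change of 0.05 (95% interval −0.31 to 0.41) and between 493 and 733 TPM.

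Of the 6 outputs tested, 2 had a log2 fold change below 0. Cdkn1a, which encodes the cell cycle inhibitor p21 and is repressed through the clock in some tissues, was at 829, 778, 656 and 643 TPM in control and at 542, 599, 564 and 534 TPM in cold replicates 1 to 4. The groups did not overlap, and the cold level was 0.654 to 0.860 times the control level of the same replicate number. Its log2 fold change was −0.40 without the block (95% interval −0.64 to −0.16, adjusted p = 0.331) and −0.39 with it (standard error 0.05, adjusted p = 6.92e-05, both with edgeR). With the block, the adjusted p of Cdkn1a was 0.0631 in DESeq2 and 0.0135 in limma. With replicates 1 and 2 alone its log2 fold change was −0.55 (adjusted p = 5.62e-08 with edgeR), and with replicates 3 and 4 alone it was −0.23 (adjusted p = 0.301), a difference that was not tested. Cdkn1a is also a target of p53 and of myogenic differentiation, and the 10 differentiation markers were lower in the same libraries, with a median log2 fold change of −1.47. That marker list includes genes that the paper already reported as lower in these data. The 8 cell cycle markers had log2 fold changes of 0.09 to 0.20, with a summed level of 1063 to 1235 TPM in control and 1233 to 1328 TPM in cold libraries. The part of either marker list in the level of Cdkn1a was not tested.

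**Figure D4:**
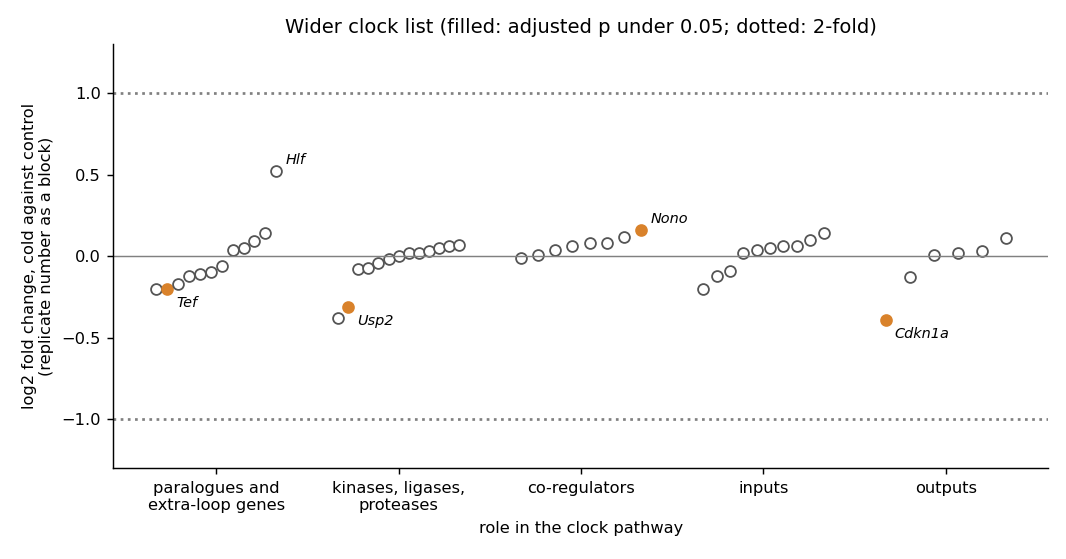
Log2 fold change, cold against control, of the 49 tested genes of the wider clock list (y axis, from the blocked edgeR model), grouped by role (x axis). Filled points, Tef, Usp2, Nono and Cdkn1a, had an adjusted p under 0.05, and all points lie inside the dotted lines at a 2-fold change.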

How the data were processed

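RNA was sequenced from 4 control and 4 cold libraries of hamster SCs (poly(A) libraries, DNBSEQ-G400, paired-end). The authors deposited 1 table of the series. Its expected counts (deposited read counts, some with decimals) are not normalized, its TPM values, as deposited, are scaled per library, and its normalized counts, a signal, were scaled by the authors with a factor whose source is not given in the sources used here. HISAT and HISAT2 are named in the submitters' processing notes, and the counting program and the genome build are not given in the sources used here, so no coordinates or sequences are printed. The identifiers of all 9 genes matched a RefSeq gene of the hamster with the same symbol.

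The expected counts, rounded to whole numbers, went into edgeR 4.0.16 (R 4.3.3, filterByExpr, TMM, quasi-likelihood F test, Benjamini-Hochberg over 12506 genes) without a block. Standard errors are the absolute log2 fold change over the square root of F, and 95% intervals use the same test's degrees of freedom. Single genes were compared in TPM by an exact two-sided permutation test over the 70 arrangements of 4 against 4 libraries. The groups share replicate numbers in the labels. Deviations from group means correlated across genes at 0.61 to 0.66 between libraries of the same number (up to 0.59 between different numbers), so replicate numbers were also fitted as a block. Depth was 16530747 to 18533801 expected counts per library, and intervals cannot separate counted molecules from PCR copies. Alternatives were DESeq2 1.42.0, limma 3.58.1 on log2(TPM + 0.1) or log2(TPM + 1), other filters and normalizations, and fits without single libraries or replicate numbers. The scripts were tested on simulated data, with counts in which 196 of the genes tested had a known change. At an adjusted p of 0.05, edgeR without the block recovered 179 of these and made 0 false calls. With the replicate block it recovered 191 and made 22 false calls. The blocked edgeR calls in the wider list come from that second kind of fit. The clock genes, the wider list, the named genes (all members, genes of the wider list with an adjusted p under 0.05 in either edgeR fit, and those with the largest change in each direction) and the tests were chosen with earlier results of these data known. Other genes of the wider list were named after their values were seen.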

Additional observations from a re-analysis of the deposited data

Results flagged for a closer look

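Among 28 groups of 4 libraries (9 clock genes and 5 genes of the wider list, control and cold), 2 had a value standing apart from the others by Dixon's criterion, beside 1.4 expected by chance. Control replicate 4 held 29.98 TPM of Nr1d2, against 25.26 to 25.87 TPM in the other control libraries, and cold replicate 3 held 0.22 TPM of Hlf, against 0.35 to 0.37 TPM in the other cold libraries. Without control replicate 4, the log2 fold change of Nr1d2 was 0.182 (adjusted p = 0.276 with edgeR) and its TPM values no longer overlapped between the groups.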

How the results depend on the processing

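The comparisons rest on 4 libraries a group, with intervals that allow fold changes of up to 1.36 for the 9 clock genes and up to 2.84 in the wider list (Hlf). Over all genes, edgeR without the block called 9 at an adjusted p of 0.05 (0 to 46 without single libraries) and DESeq2 136. With the block edgeR called 667 and DESeq2 356. No clock gene passed an adjusted p of 0.05 in the replicate block, with DESeq2, limma, other filters and normalizations, or without any single library. The exceptions were 2 genes (Clock and Nr1d2) with the replicate block and without replicate 4 and 2 with replicates 1 and 2 alone, so that counts without single libraries or numbers ran from 0 to 2. At an unadjusted p under 0.05, 1 clock gene became 0 without control replicate 2, control replicate 3 or cold replicate 2 and with replicates 3 and 4 alone, and 3 with the block and without replicate 4 and with replicates 1 and 2 alone. TPM values did not overlap for 1 gene, against 2 with TMM-scaled CPM and 2 without control replicate 4 (Per1 and Nr1d2 in each), a range of 1 to 2 without single libraries. In the wider list, 0 genes were called without the block, 4 with the replicate block (5.33% of all genes), 1 with DESeq2 and the block (2.14%), 1 with limma on log2(TPM + 0.1) and the block (2.11%), 9 with replicates 1 and 2 alone (11.6%), and 1 to 5 with the block and without 1 replicate number (2.84% to 7.44%). Without the block and without single libraries, 0 were called.

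Of the 9 clock genes, 7 kept the sign of their log2 fold change in all 25 alternatives. The exceptions were Per3 (−0.01 in the report), which ran from −0.099 to 0.085 without single libraries, was 0.018 with the block and without replicate 1, and was 0.037 with replicates 3 and 4 alone, and Cry2 (0.01), which ran from −0.037 to 0.068 without single libraries, was −0.032, −0.0084 and −0.023 with the block and without replicate 2, 3 or 4, −0.0008 with no filter and −0.061 with replicates 1 and 2 alone. Hlf was −0.233 with replicates 3 and 4 alone. The cause of these changes was not tested.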
